A study of Mus musculus with 3 samples.

Results

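Chemokines and their receptors were examined by name in single-cell RNA sequencing of the mouse pituitary. The 58 genes examined were taken from the 55293 symbols of the deposited count table by a symbol made of Ccl, Cxcl, Cx3cl, Cx3cr, Ccr, Cxcr or Ackr and a number. Of these, 41 had at least 50 counts over all cells and are described by cell cluster and genotype. The other 17 had fewer: Ackr1, Ackr2, Ccl1, Ccl20, Ccl21a, Ccl21b, Ccl21d, Ccl22, Ccl26, Ccr3, Ccr7, Ccr8, Cxcl15, Cxcl17, Cxcl3, Cxcr1 and Cxcr5, with Ccl20 and Cxcl15 at 0 counts and Ccr7 highest among them with 34.

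The study took cells of freshly dissociated pituitaries from mice of 3 genotypes, TpitWT, TpitHT and TpitKO, called WT, HT and KO below, with 1 library each. Tbx19 encodes Tpit, a transcription factor that specifies the hormone cells that make pro-opiomelanocortin. The labels do not spell out HT, the allele, the number of mice pooled, their age or their sex. The authors assigned 11222 WT, 12839 HT and 13413 KO cells to 21 numbered clusters, and 115 barcode sequences occurred in more than 1 library. The targeted gene read 17.6, 12.4 and 0.690 CPM (a gene's counts scaled to 1000000 counts of the same cells) in WT, HT and KO, and Pomc 21846, 22576 and 58.3 CPM. No cell of clusters 6 and 7, the corticotrope-like and melanotrope-like cells, was listed for KO. With 1 library per genotype no difference has a replicate check, so no test was made and no p-value is given. Intervals are 95% and cover counting error only. Counts gather in single cells, so an interval on CPM is too narrow where few cells carry a gene, and the number of cells with a count is given beside it.

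Chemokines are small secreted proteins that direct the movement of leukocytes and other cells by binding G protein-coupled receptors. The CC and CXC families are named for the spacing of their first cysteines, and Cx3cl1 and Cxcl16 are made as membrane-bound proteins that can be shed. Atypical receptors, the Ackr genes, bind chemokines without G protein signalling and take them up. In the pituitary, resident macrophages, blood vessels, folliculostellate and stem cells and the hormone cells themselves can all be sources or targets.

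The clusters were checked against marker lists. Clusters 3, 6, 7, 10, 14, 19 and 20 matched 1 list and are called gonadotrope-like, corticotrope-like, melanotrope-like, pituitary stem cell-like, thyrotrope-like, macrophage-like and cycling-like. Cluster 8 was led by Ms4a7, H2-Aa, Cd74 and Lyz2 and met both the macrophage and the dendritic cell list, so it keeps its number, as does cluster 16, which was led by Igkc, Jchain, Nkg7 and Ccl5 and met 6 lists of immune and cycling genes. Cluster 15 was led by Dcn, Lum and Col3a1, and cluster 9 by Plvap, Flt1, Kdr and Emcn. Clusters 1 and 2 were led by Gh, Ghrhr and Pappa2, cluster 4 by Prl, cluster 0 by Gal, Angpt1 and Edil3, and cluster 11 by Klk1 and Cck. These matched no marker list. Clusters 0, 1, 2 and 4 are still grouped with the hormone cells below, a grouping that the lists do not give. Ccl4 and Cxcl2 stood among the 10 leading genes of cluster 8 and Ccl5 among those of cluster 16, so their presence there may be part of what formed the clusters.

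The highest CPM of 23 of the 41 genes was in the immune clusters 8 and 16, among clusters large enough to be ranked. Cluster 19 was too small for this ranking, although some of these genes read higher there. Cx3cr1 reached 2435 CPM in its KO cells against at most 984 in cluster 8, and Ccr6 158 against 12.2. Among clusters with at least 50 cells in a genotype, 12 genes peaked in cluster 8, 11 in cluster 16 and 9 in cluster 15. Cluster 10 held the peak of Cx3cl1 and Ccl28, cluster 3 of Cxcl14, cluster 0 of Cxcl13, cluster 18 of Ackr4, cluster 11 of Ccl27a, cluster 17 of Ccl27b, and cluster 14 of Ccl25 and Ccr4. The peak of Ccr4 rested on 2 counts in HT. Some peaks in cluster 16 also rested on few cells. Cxcr2 had 9 counts in 2 KO cells there, Ccr9 had 9 counts in 4 KO cells and Ccr10 had 6 counts in 4 WT cells. Ccl17 had 26 counts in 4 KO cells. Of all counts, 480 of 934 for Ccr10 were in cluster 0 and 576 of 1283 for Ccl17 in cluster 2. By share of cells, Ccl17 peaked in cluster 2. Ccl27a and Ccl27b are near-identical copies whose reads the counting could have divided between them, so their levels are uncertain. The sources do not say which genes the clustering used, and any gene here could have taken part in it, so these positions are descriptions.

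**Figure D1:**
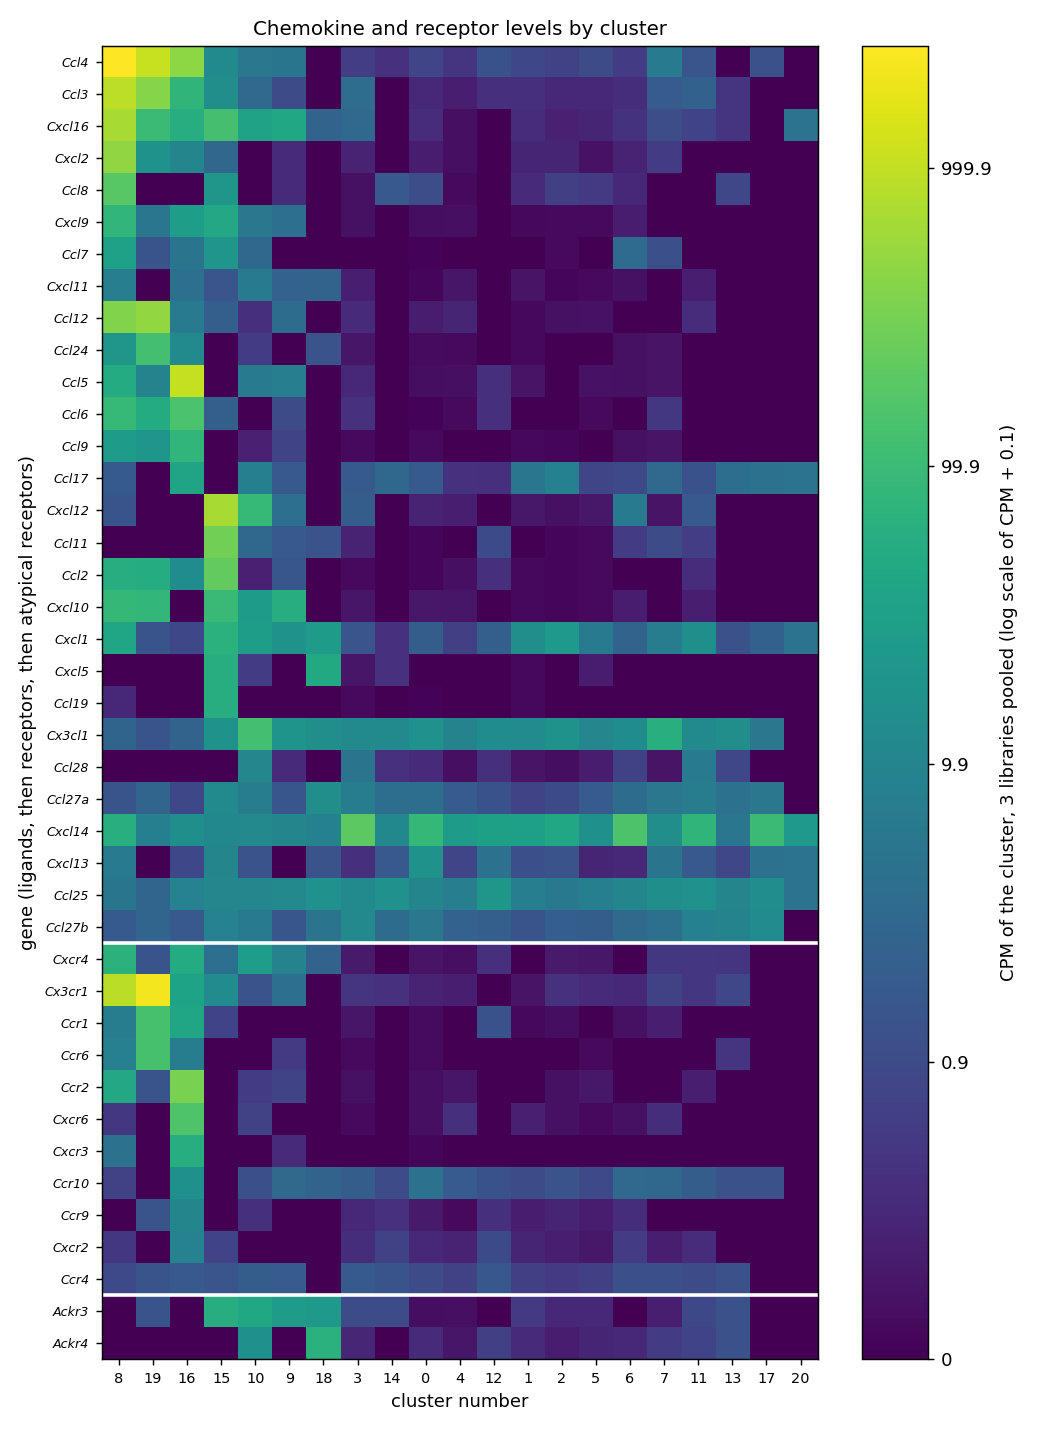
Level of the 41 genes (rows) in the 21 clusters (columns), with the counts of the 3 libraries pooled and shown as CPM on a log colour scale; white lines part ligands, receptors and atypical receptors. Ligands and receptors of leukocytes fill clusters 8, 19 and 16 at the left, and Cxcl12 and Ccl11 mark cluster 15. Ackr3 is found in both clusters 15 and 10, and Cxcl14, Ccl25 and Cx3cl1 extend through the hormone cell clusters.

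The neutrophil-attracting ligands Cxcl1 and Cxcl2 and Ccl8 and Ccl12 of the monocyte chemoattractant protein family were among the genes of cluster 8 that differed in opposite directions between KO and WT. Their upstream sequences are shown for that reason, so the genes were chosen by their direction in these data. Ccl9 and Cxcl9 were also lower in KO by CPM there, and their match results are not given. Cxcl1 reached the minimum count for a ratio only through WT, so it had to differ. Cxcl1 and Cxcl2 lie close together on chromosome 5, and Ccl8 and Ccl12 on chromosome 11. The 250 bases before each RefSeq start site (GRCm38.p6, 5′ to 3′) were searched on both strands for GGGA followed by any 4 bases and CC, a loose form of the NF-kB site. Overlapping matches are counted separately and capitals mark the matched bases. The windows are chr5:90890995-90891244, chr5:90903649-90903898, chr11:82114935-82115184 and chr11:82101595-82101844, all on the + strand.
Cxcl1: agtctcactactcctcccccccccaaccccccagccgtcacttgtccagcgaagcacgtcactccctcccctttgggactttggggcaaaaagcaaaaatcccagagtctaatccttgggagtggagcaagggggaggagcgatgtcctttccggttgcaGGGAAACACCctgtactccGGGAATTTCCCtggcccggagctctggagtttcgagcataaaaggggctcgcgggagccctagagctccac
Cxcl2: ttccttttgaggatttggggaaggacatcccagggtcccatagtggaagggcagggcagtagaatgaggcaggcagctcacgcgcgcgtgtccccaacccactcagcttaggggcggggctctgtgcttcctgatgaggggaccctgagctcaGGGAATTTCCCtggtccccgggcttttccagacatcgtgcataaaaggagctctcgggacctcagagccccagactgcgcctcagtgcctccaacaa
Ccl8: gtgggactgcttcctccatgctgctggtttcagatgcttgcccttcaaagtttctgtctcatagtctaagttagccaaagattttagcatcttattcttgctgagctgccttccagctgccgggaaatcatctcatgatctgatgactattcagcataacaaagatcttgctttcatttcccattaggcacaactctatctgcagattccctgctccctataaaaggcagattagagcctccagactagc
Ccl12: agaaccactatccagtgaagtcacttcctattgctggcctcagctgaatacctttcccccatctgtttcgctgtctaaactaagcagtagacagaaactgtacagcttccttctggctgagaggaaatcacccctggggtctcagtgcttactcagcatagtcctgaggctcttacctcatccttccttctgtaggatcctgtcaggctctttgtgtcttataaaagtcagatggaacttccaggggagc
The Cxcl1 window matched at 3 positions and the Cxcl2 window at 2, while those of Ccl8 and Ccl12 had none. Of all 32851 promoter windows in the RefSeq table, 17.6% held a match in these bases. For 31 of the 41 genes the table held 38 windows, and 12 of these (31.6%) had a match. A match in letters is not a bound site, and no match says only that these letters are absent from this stretch. Any link between a match and the direction of the KO over WT difference was not tested. The genes shown were chosen by direction, so nothing about direction is read from their windows.

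In cluster 8 the levels of Ccl8 and Ccl12, which attract monocytes and other leukocytes, were higher in KO than in WT. In WT, Ccl8 had 25 counts from 8 of 307 cells, in HT 264 counts from 19 of 377 and in KO 579 counts from 43 of 417, or 22.4, 162 and 299 CPM. The KO over WT ratio of CPM was 13.3 (8.94 to 20.8), but the share of cells with a count differed less, by 3.96-fold, and a positive cell held 3.13, 13.9 and 13.5 counts on average in WT, HT and KO. HT was at 7.21 times the WT level of Ccl8 by CPM, while by share of cells, at 2.61%, 5.04% and 10.3%, it stood nearer to WT than to KO. Ccl12 read 211, 326 and 510 CPM and was detected in 25.7% (20.9 to 31.0), 34.7% (29.9 to 39.8) and 43.4% (38.6 to 48.3) of cells. Its KO over WT ratio was 2.42 (2.10 to 2.80), again with HT between the other libraries.

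Cxcl1, Cxcl2 and Ccl9 were lower in the KO cells of cluster 8. The WT, HT and KO levels of Cxcl2 were 688, 574 and 261 CPM, with counts in 36.2%, 37.4% and 22.8% of cells. WT was 2.64 times (2.36 to 2.96) the KO level, and the HT library resembled WT. Cxcl1 read 70.0, 54.5 and 9.81 CPM, with counts in 33 WT, 36 HT and 6 KO cells, so that WT was 7.13 times (4.28 to 12.5) the KO level. For both genes the counting intervals of KO lay below those of WT and HT, by CPM and by share of cells. Ccl9, a ligand of Ccr1, stood at 50.3, 28.2 and 11.9 CPM in 11.7%, 7.43% and 3.36% of cells, a WT over KO ratio of 4.23 (2.56 to 7.21) with HT between.

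The macrophage inflammatory proteins Ccl3 and Ccl4 were detected in most cells of cluster 8. The share of cells with a count of Ccl4 was 87.0%, 80.9% and 81.5% in WT, HT and KO, at 3419, 2567 and 2106 CPM. In cluster 0, 0.512%, 0.702% and 0.602% of cells had a count of Ccl4. The cells of cluster 0 were deeper, with 9013, 11496 and 9319 counts per cell against 3630, 4331 and 4644 in cluster 8. Ccl3 read 1289.6, 932 and 719 CPM. Both were lower in KO than in WT by less than 2-fold, at 1.62 times (1.55 to 1.70) for Ccl4 and 1.79 times (1.67 to 1.93) for Ccl3, and for both HT lay between WT and KO.

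The interferon-induced ligands of Cxcr3, namely Cxcl9, Cxcl10 and Cxcl11, rested on few cells. Cxcl9 had 48 counts in 2 WT cells, 293 counts in 7 HT cells and 31 counts in 8 KO cells of cluster 8. Its CPM was 2.69 times (1.68 to 4.37) higher in WT than in KO, while the share of cells with a count was 2.94 times higher in KO, so its direction depended on the measure. Cxcl10 had 67, 209 and 123 counts in 11, 22 and 36 cells, with a KO over WT ratio of CPM of 1.06 (0.778 to 1.44) and a share of cells 2.41 times higher in KO than in WT. Cxcl11 had 4, 28 and 3 counts in 1, 5 and 2 cells. HT had the most counts of all 3 genes in this cluster.

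The ligands Cxcl16, Ccl6, Ccl2 and Ccl7 differed by less than 2-fold between KO and WT in cluster 8. Cxcl16, the ligand of Cxcr6, was detected in 76.9%, 82.0% and 87.3% of cells at 586, 693 and 739 CPM. Ccl6 read 82.6, 103 and 81.6 CPM, with all 3 counting intervals overlapping. Ccl2, the main ligand of Ccr2, read 61.9, 61.2 and 47.0 CPM, and its relative Ccl7 34.1, 30.6 and 34.1 CPM in 5, 8 and 8 cells. Ccl24, a ligand of the eosinophil receptor Ccr3, had 21, 70 and 9 counts, or 18.8, 42.9 and 4.65 CPM, with KO the lowest, and was under the minimum of 50 counts for a KO over WT ratio.

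**Figure D2:**
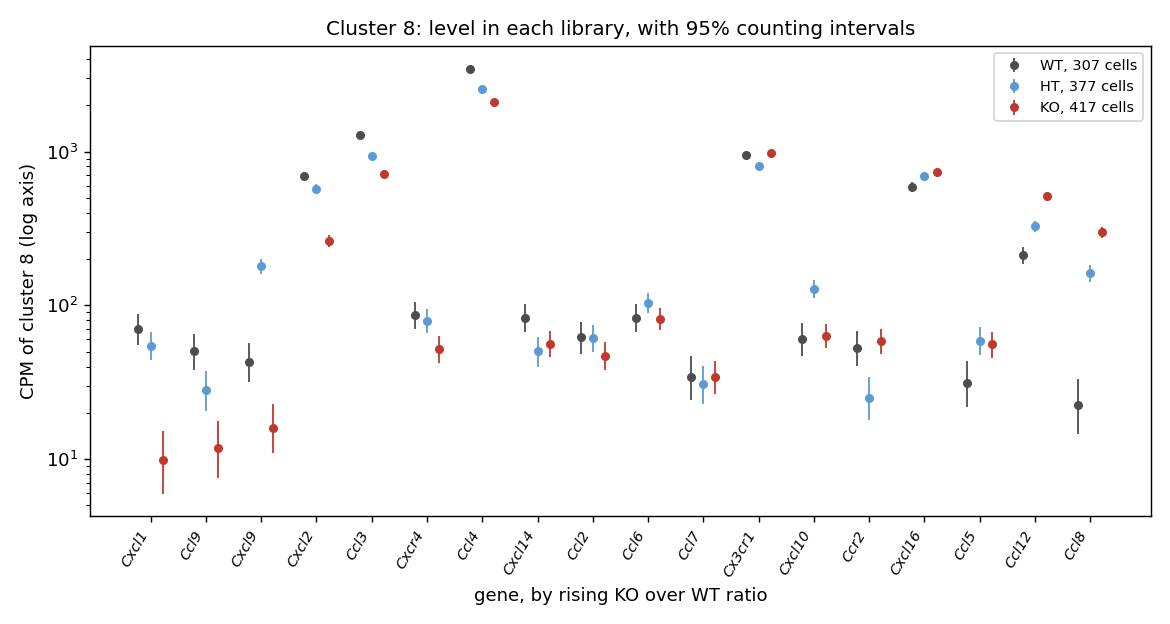
CPM (log axis) in cluster 8 for the 18 genes whose WT and KO counts add to 50 or more; points are the WT, HT and KO libraries, bars are 95% counting intervals and genes run from the lowest to the highest KO over WT ratio. KO is the lowest point for Cxcl1, Ccl9, Cxcl9 and Cxcl2 at the left and the highest for Ccl12 and Ccl8 at the right.

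Cx3cr1, Ccr2 and Cxcr4, receptors compared in cluster 8, each differed by less than 2-fold between KO and WT. Cx3cr1, the receptor of Cx3cl1 and a marker of resident macrophages, had counts in 87.3%, 84.6% and 92.1% of cells at 955, 799 and 984 CPM. Its deposited interval on chromosome 9 overlaps Csrnp1, Gorasp1 and Xirp1 on the same strand, so reads could be shared with them. Ccr2, the receptor of recruited monocytes, read 52.9, 25.1 and 58.3 CPM, with HT the lowest. Cxcr4, the receptor of Cxcl12, stood at 86.2, 79.6 and 51.6 CPM in 19.2%, 21% and 14.9% of cells, 1.67 times (1.25 to 2.23) higher in WT than in KO.

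For 18 genes the WT and KO counts of cluster 8 added to 50 or more. Ccl8 and Ccl12 were at least 2-fold higher in KO, against 1.85% of all genes compared in that cluster, and Ccl9, Cxcl1, Cxcl2 and Cxcl9 at least 2-fold lower, against 2.24%. Ccl9, Cxcl1 and Cxcl9 reached 50 counts only through WT, where they were high: at the KO level in both libraries they would have had fewer, so among the genes that passed they had to differ. The median log2 ratio of the 18 genes was -0.21 and that of all 6104 genes 0.03. The HT library, compared with WT in the same way, had 4 of 19 genes at least 2-fold higher, namely Ccl24, Ccl8, Cxcl10 and Cxcl9, against 1.16% of all genes, and Ccr2 lower, against 1.2%. KO and HT are both set against the same WT library. RNA of hormone cells in cluster 8 differed among the libraries, since the somatotrope list summed to 58953, 34523 and 14145 CPM, and its part in the ratios was not tested. With the hormone and mitochondrial genes taken out of the denominator, the same count of 2 higher and 4 lower was obtained.

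Cluster 19, the macrophage-like cells led by P2ry12, Siglech and Tmem119, held only 27 WT, 40 HT and 48 KO cells and was too small for a ratio. Cx3cr1 was detected in 27, 39 and 48 of these cells, at 1994, 1836 and 2435 CPM. Ccr6, the receptor of Ccl20, had counts in 10, 18 and 23 of them, while in cluster 8 it was found in 6, 12 and 9 cells. Ccl12 was detected in 40.7%, 47.5% and 68.8% of cells and Ccl24 in 51.9%, 67.5% and 22.9%. For Ccl12 KO was the highest of the libraries, as in cluster 8, and for Ccl24 the lowest. Ccl4 did not follow cluster 8, where KO was the lowest. It read 800, 776 and 1489 CPM in WT, HT and KO of cluster 19, in 44.4%, 50% and 64.6% of cells. Ccl3 read 597, 329 and 396 CPM there, with HT the lowest.

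Cluster 16 held the lymphocyte genes, and its makeup differed among libraries. It had 72 WT, 17 HT and 161 KO cells. The T cell and NK cell list summed to 1214, 220 and 1333 CPM there, the dendritic cell list to 3471, 17271 and 16563 CPM, the macrophage list to 810, 1109 and 2486 CPM and the neutrophil list to 203, 9.56 and 1307 CPM. KO had the highest sum for the macrophage, neutrophil and T and NK cell lists, with all 7 T and NK genes detected in both WT and KO. What part this makeup plays in the values below was not tested.

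Ccl5, a ligand made by T and NK cells, had 317 counts in 35 WT cells, 6 counts in 1 HT cell and 994 counts in 54 KO cells of cluster 16. The CPM was 1.5 times (1.32 to 1.70) higher in KO than in WT, but counts were found in 48.6% of WT and 33.5% of KO cells. Ccl3 had 6, 9 and 78 counts in 4, 1 and 14 cells, and Ccl4 67, 5 and 497 counts in 20, 4 and 46 cells. The KO over WT ratio of Ccl4 was 3.54 (2.74 to 4.64) by CPM, with nearly equal shares of cells, 27.8% and 28.6%. Ccl6 and Ccl9, expressed by myeloid cells, were 6.46 times (3.51 to 13.2) and 6.60 times (2.91 to 18.5) higher in KO, and Cxcl16 7.63 times (2.46 to 38.3) higher from 3 WT counts. Ccl17, a ligand of Ccr4 made by dendritic cells, had no count in WT, 20 counts in 3 HT cells and 26 counts in 4 KO cells.

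Among the receptors of cluster 16, the cells with Ccr2 numbered 18 of 72, 8 of 17 and 72 of 161 in WT, HT and KO, at 115, 325 and 448 CPM, a KO over WT ratio of 3.89 (2.81 to 5.49). Cxcr6 and Cxcr3, receptors of lymphocytes, did not share this direction in both CPM and share of cells: Cxcr6 had counts in 37.5%, 5.88% and 26.7% of cells at 148, 9.56 and 186 CPM, and Cxcr3 in 25.0%, 11.8% and 13% at 82.4, 19.1 and 47.2 CPM. Ccr1, with 2, 5 and 43 counts, fell short of 50 in WT and KO together. Ccr9, Ccr10 and Cxcr2 had at most 12 counts in any library of this cluster, and 2 rows on the same strand overlap Ccr9. Of 10 genes compared, Ccl3, Ccl4, Ccl6, Ccl9, Ccr2 and Cxcl16 were at least 2-fold higher in KO, where 16% of all 2880 genes were too, and none was lower (1.84% of all genes). Ccl3, Ccl6, Ccl9 and Cxcl16 reached the minimum only through KO and had to differ, so nothing is read from this count.

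**Figure D3:**
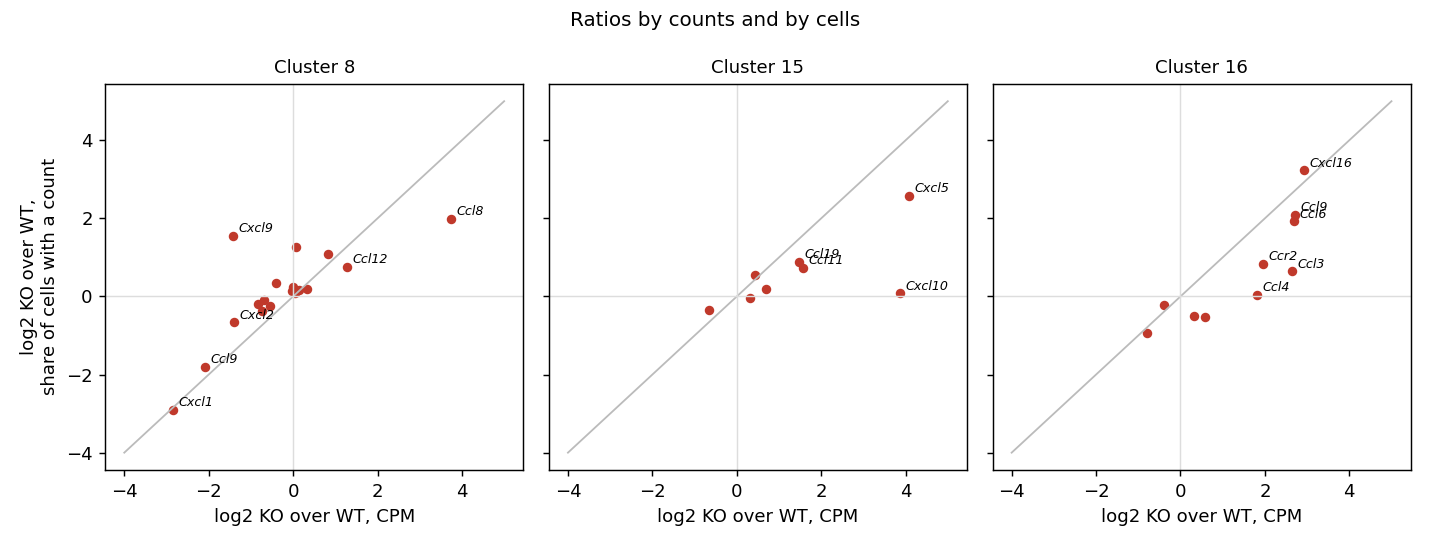
KO over WT log2 ratio of CPM (horizontal) against log2 ratio of the share of cells with a count (vertical) in clusters 8, 15 and 16; each point is a gene with a count in both libraries and more than 3 positive cells in at least 1 of them, names mark CPM ratios of at least 2-fold and the grey line marks equal ratios. Cxcl9 in cluster 8 changes sign between the measures, and Cxcl10 in cluster 15 and Ccl4 in cluster 16 differ by CPM with nearly equal shares of cells.

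Cluster 15, the cells led by Dcn and Lum, had the highest level of Cxcl12, the ligand of Cxcr4 and Ackr3 that retains blood-forming and stem cells. Among WT cells 46 of 57 had a count of Cxcl12, among HT cells 83 of 99 and among KO cells 132 of 144, or 80.7% (68.1 to 90.0), 83.8% (75.1 to 90.5) and 91.7% (85.9 to 95.6). In cluster 0 the share was 0.181%, 0.113% and 0.0951%. The level was 490, 683 and 786 CPM, with KO at 1.60 times (1.33 to 1.94) the WT level and HT between. The shares of cells overlapped in their intervals.

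Ccl11, the eosinophil ligand eotaxin, and Ccl19, a ligand of Ccr7, also peaked in cluster 15. Ccl11 had 43 counts in 11 WT cells, 96 in 21 HT cells and 302 in 46 KO cells, at 149, 189 and 442 CPM. KO was 2.96 times (2.14 to 4.17) the WT level, and 19.3%, 21.2% and 31.9% of cells had a count. Ccl19 was detected in 10.5%, 14.1% and 19.4% of cells. Both genes had their highest share in KO, with overlapping intervals for WT and KO.

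The inflammatory ligands of cluster 15 came from few cells and varied between all 3 libraries. Ccl2 had 84 counts in 9 WT cells, 4 counts in 2 HT cells and 249 counts in 22 KO cells, so that HT stood apart and KO over WT was 1.25 (0.971 to 1.62). Cxcl5, a neutrophil-attracting ligand, had 2, 1 and 80 counts in 1, 1 and 15 cells, a KO over WT ratio of 16.8 (4.51 to 141). Cxcl10 had 138 counts in 8 KO cells against 4 counts in 3 cells of each other library, with 5.26%, 3.03% and 5.56% of cells positive. All 68 counts of Cxcl9 were in 1 KO cell. Ccl19, with 7, 29 and 46 counts, Cxcl9, Cxcl10 and Cxcl5 reached the minimum of 50 counts only through KO, so their ratios had to differ. Cxcl1 went the other way, with 108, 37.5 and 68.8 CPM, and Cxcl16 read 111, 103 and 151 CPM. Ccl7 had 11, 1 and 18 counts in 2, 1 and 5 cells of this cluster.

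Of 9 genes compared in cluster 15, Ccl11, Ccl19, Cxcl10, Cxcl5 and Cxcl9 were at least 2-fold higher in KO, against 5.11% of all 3346 genes, and none was lower, against 1.94%. Since 4 of the 5 had to differ, nothing is read from this count. By share of cells, Cxcl5 alone passed 2-fold. Macrophage and dendritic genes were also highest in KO in this cluster: the macrophage list summed to 3.48, 114 and 301 CPM with 1, 8 and 9 of its 10 genes detected, and the dendritic cell list to 0, 229 and 663 CPM with Flt3, Cd209a and Itgax at 0 in all 3 libraries. The T and NK cell genes were all at 0. The part of these cells in the chemokine values was not tested.

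**Figure D4:**
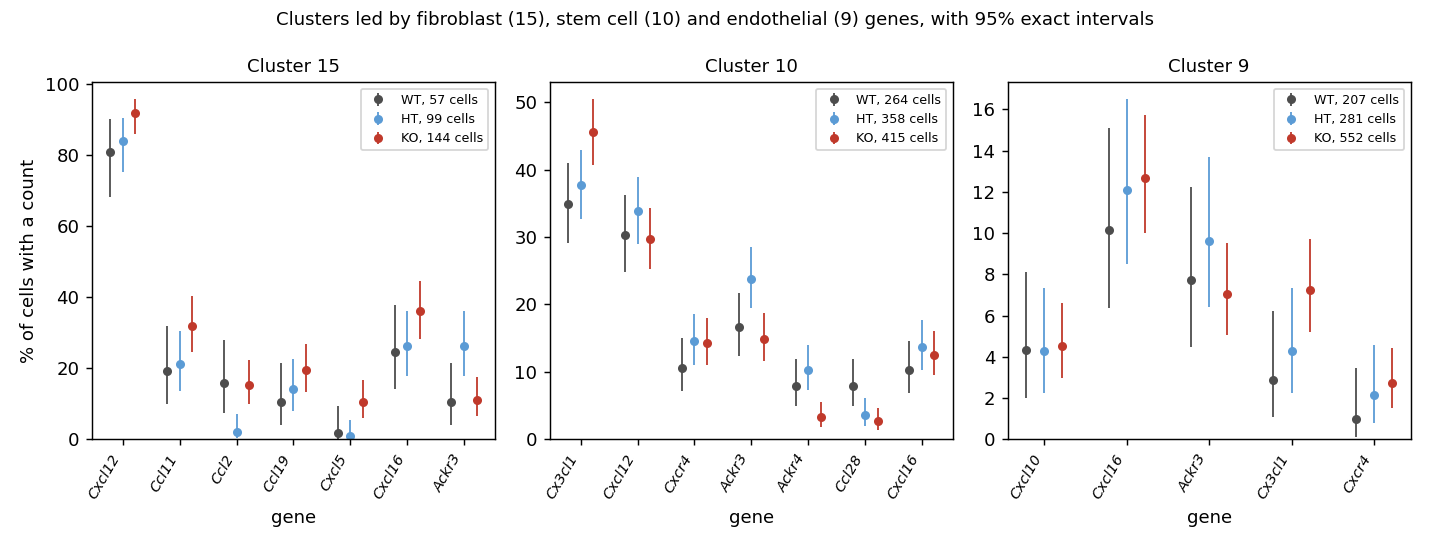
Share of cells with a count (vertical, percent) of selected genes in clusters 15, 10 and 9; points are the WT, HT and KO libraries and bars are 95% exact intervals. Cxcl12 is found in over 80% of the cells of cluster 15 in each library, and Cxcl5 in cluster 15 stands at 10.4% in KO against 1.75% and 1.01%.

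In the pituitary stem cell-like cells of cluster 10, Cx3cl1, the ligand of the macrophage receptor Cx3cr1, was detected in 34.8%, 37.7% and 45.5% of cells. Its level was 110, 95.3 and 164 CPM, a KO over WT ratio of 1.5 (1.25 to 1.81), with HT the lowest. Cxcl12 and its receptor Cxcr4 were both found in this cluster, Cxcl12 in 30.3%, 33.8% and 29.6% of cells and Cxcr4 in 10.6%, 14.5% and 14.2%. Neither differed between KO and WT beyond its counting interval, at 1.09 (0.877 to 1.36) and 1.16 (0.782 to 1.73). Ccl28, a ligand of Ccr10 made by mucosal epithelia, had 35, 20 and 15 counts, 3.84 times (2.05 to 7.57) more by CPM in WT than in KO, with HT near KO at 8.33 CPM against 23.7 in WT and 6.16 in KO.

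The atypical receptors marked non-hormone cells. Ackr3, which takes up Cxcl12, was detected in 16.7%, 23.7% and 14.9% of cluster 10, in 10.5%, 26.3% and 11.1% of cluster 15 and in 7.73%, 9.61% and 7.07% of cluster 9. HT had the highest share in all 3 clusters, and WT and KO overlapped. None of the 307, 377 and 417 cells of cluster 8 had a count of Ackr3, which at the limit of 3 cells allows shares of cells with a count of up to 0.977%, 0.796% and 0.719%. Ackr4, which takes up Ccl19, Ccl21 and Ccl25, was found in 7.95%, 10.3% and 3.37% of cluster 10, at 21, 23.3 and 6.16 CPM. It also had 53 counts in 25 of the 107 KO cells of cluster 18, cells led by Cldn10 and Scn7a of which WT had 9 and HT 2, so no level could be given there for the other libraries.

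Of 8 genes compared in cluster 10, Cxcl10 was at least 2-fold higher in KO, against 1.75% of all genes, and Ccl28 at least 2-fold lower, against 1.14%. Both genes reached 50 counts only through the library where they were high, so nothing is read from these counts. The Cxcl10 value came from 162 counts in 3 KO cells against 1 count in WT, and the shares of cells were 0.723% and 0.379%. Single cells also carried other interferon-induced ligands there, with 40 counts of Cxcl11 and 36 of Cxcl9 each in 1 KO cell. In cluster 9, the endothelial-led cells, 5 genes were compared and Cx3cl1 was higher in KO, at 12, 12.3 and 25.6 CPM and a ratio of 2.12 (1.05 to 4.87), against 4.41% of all genes, with none lower (2.11%). That call rested on 9 WT counts, reached the minimum only through KO, and was lost without the hormone and mitochondrial genes (log2 ratio 0.95) and with the authors' scaled counts (0.97). Cxcl10 in cluster 9 read 54.9, 24.6 and 70.8 CPM in 4.35%, 4.27% and 4.53% of cells, a difference in counts and not in the share of cells.

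Hormone cells carried a smaller set, led by Cxcl14, a ligand expressed by epithelia and many resting tissues. In cluster 3, the gonadotrope-like cells, it was detected in 48.6% of 449 WT, 62.2% of 630 HT and 55.8% of 1662 KO cells, with 171, 248 and 183 CPM. The corticotrope-like cells of cluster 6 had it in 55.4% of WT and 53.0% of HT cells, at 169 and 134 CPM, a source that KO lacked. In cluster 0 it was found in 41.1%, 46.9% and 46.5% of cells at 80.7, 86.8 and 98.4 CPM. The shares in the endothelial-led cluster 9 were 5.80%, 3.20% and 1.63%, at less than the depth of cluster 3. Across clusters 0 and 3 the KO over WT ratios were 1.22 (1.15 to 1.29) and 1.08 (0.999 to 1.16).

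In cluster 1, led by Gh and Ghrhr, Cxcl14, Cxcl1 and Ccl17 were lower in KO. Cluster 1 had 1635 WT, 1715 HT and 1188 KO cells. Cxcl14 was detected there in 20.9%, 22.8% and 6.31% of cells at 38.7, 36.0 and 11 CPM, 3.52 times (2.86 to 4.38) higher in WT than in KO. Cxcl1 read 24.1, 12.8 and 7.70 CPM in 7.40%, 5.25% and 3.03% of cells. Ccl17 read 6.43, 6.68 and 0.924 CPM, with counts in 56, 84 and 7 cells. For Cxcl14 and Ccl17, WT and HT lay close together and KO apart, while for Cxcl1 HT lay between. Of 5 genes compared in cluster 1 these 3 were at least 2-fold lower in KO, against 2.06% of all 11259 genes, and none was higher (3.9%). Ccl17 reached the minimum in cluster 1 only through WT.

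The genotypes did not share all clusters: cluster 2 held 2081 WT, 2092 HT and 17 KO cells, and cluster 5 held 28, 24 and 2457. Cluster 5 matched no marker list and had Ppp1r3b, Dnah8 and Igf1 among its leading genes, so the markers used here do not name its cells. Clusters 1, 2 and 5 were also combined, a choice made after seeing the data. Of the 3662 KO cells joined, 2457 were of cluster 5, so the ratios below set mostly cells of that cluster against cells of clusters 1 and 2. Ccl17 then had 305 counts in 219 WT cells, 483 in 331 HT cells and 33 in 24 KO cells, at 6.98, 8.79 and 0.794 CPM, 8.79 times (6.12 to 13) higher in WT than in KO. Cxcl1 read 28.6, 17.2 and 6.57 CPM in 9.59%, 6.11% and 2.43% of cells, 4.35 times (3.81 to 4.97) higher in WT. Cxcl14 read 40.1, 42.8 and 14.8 CPM in 26.5%, 31.8% and 11% of cells, 2.70 times (2.47 to 2.97) higher in WT. Cxcl13, the B cell-attracting ligand of Cxcr5, was low there, with 54, 67 and 14 counts.

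In these joined clusters 4 of 10 genes, Ccl17, Cxcl1, Cxcl13 and Cxcl14, were at least 2-fold lower in KO than in WT, against 2.86% of all genes, and Ccl27a was higher at 0.687, 0.855 and 1.64 CPM, against 4.73%. Of these, Cxcl13 reached the minimum only through WT. Set against HT, Ccl17, Cxcl1, Cxcl13 and Cxcl14 were again lower by at least 2-fold (2.59% of all genes) and none was higher (4.1%). The KO library is shared by both comparisons. Cxcl13 reached the minimum against HT only through HT, so it had to differ in both. None of 11 genes differed by 2-fold between HT and WT, with 0.746% of all genes higher and 1.04% lower. In cluster 0 Ccl17 read 1.70, 1.79 and 1.36 CPM and Cxcl1 1.57, 2.56 and 1.22 CPM, and Cxcl14 in the KO cells of clusters 0, 3 and 4 was within 2-fold of WT.

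**Figure D5:**
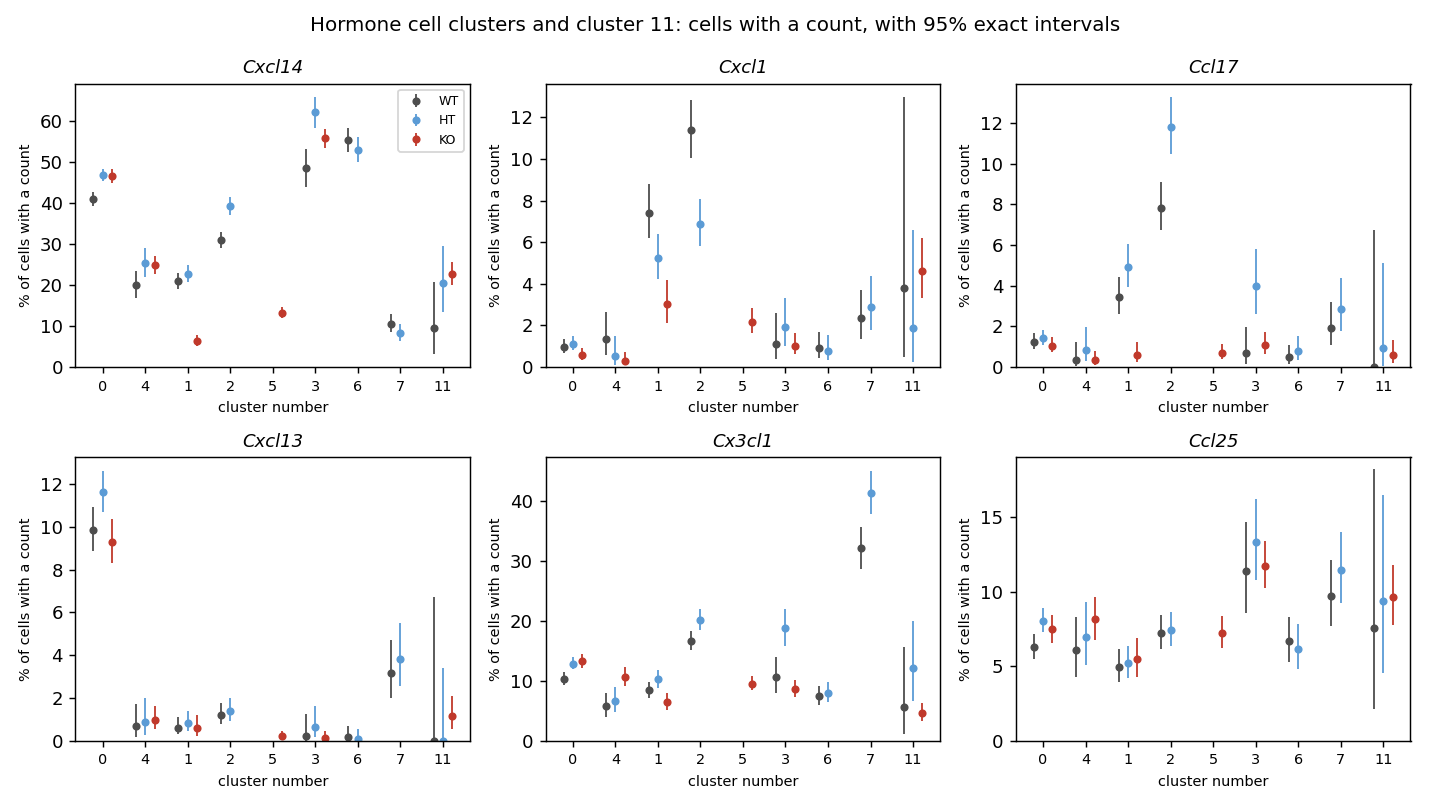
Share of cells with a count (vertical, percent) of 6 ligands in the hormone cell clusters and clusters 5 and 11 (horizontal, cluster number). Libraries with at least 50 cells of the cluster are shown, and scales differ between panels. Bars are 95% exact intervals. Cxcl14, Cxcl1 and Ccl17 are lower in the KO library in cluster 1, and KO cluster 5 stands at 13.2%, 2.16% and 0.692%, below cluster 2 of WT at 30.9%, 11.4% and 7.83%.

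Cxcl13 was mainly a gene of cluster 0, which matched no marker list and keeps its number. Of the 3321, 4416 and 3156 cells in WT, HT and KO, 9.88%, 11.6% and 9.28% had a count, at 19.4, 17.9 and 17.8 CPM. The ratio of KO to WT was 0.915 (0.811 to 1.03). None of the 207, 281 and 552 cells of cluster 9 had a count, which at the limit of 3 cells allows shares of cells with a count of up to 1.45%, 1.07% and 0.543%. Of 11 genes compared in cluster 0 none differed by 2-fold in either direction, where 1.03% of all genes were higher and 1.92% lower.

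Cx3cl1 was broad, and besides cluster 10 stood out in the melanotrope-like cells of cluster 7, found in 32.1% of WT and 41.4% of HT cells at 58.5 and 63.3 CPM. In cluster 0 it read 15.3, 16.8 and 20.0 CPM, in cluster 4 it read 6.25, 6.99 and 11.7 CPM, and in cluster 3 it read 14.1, 19.1 and 9.12 CPM. KO was thus the highest library in clusters 0 and 4 and the lowest in cluster 3, each by less than 2-fold against WT. Ccl25, a ligand of Ccr9, had counts in 6.56%, 7.45% and 7.60% of all cells and in every hormone cluster, at 9.14, 8.93 and 10.6 CPM over all cells. In the thyrotrope-like cells of cluster 14 it had 9, 5 and 39 counts, at 10.2, 8.70 and 23.6 CPM. Ccr10 was spread thinly, with 3.46%, 3.58% and 2.60% of cells in cluster 0. No hormone cluster stood out for Ccr4, which was found in 0.624%, 0.958% and 0.895% of all cells.

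The remaining clusters gave few comparisons. In cluster 3 none of 8 genes differed by 2-fold (2.47% of all genes higher, 2.5% lower), although Ccl27a and Ccl27b were 1.92 and 1.94 times higher in WT. Cluster 4 had 1 of 5 lower, Ccl27a at 3.12, 1.77 and 1.39 CPM, against 0.752%, and none higher against 2.47%. In cluster 11, with 53 WT cells, Cxcl14 was higher in KO at 39.7, 65.1 and 81.3 CPM (11.4% of all genes higher) and Ccl27a lower at 18.3, 4.91 and 6.95 CPM (4.93% lower), of 5 compared. In clusters 4 and 11 Ccl27a reached the minimum only through WT. Ccl27b had 1, 4 and 7 counts in cluster 17. Neither of 2 genes differed in cluster 12, led by hemoglobin genes and Prl (3.9% higher, 2.92% lower), and clusters 13 and 14 had no gene with enough counts.

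Summed over all cells, 40 of the 41 genes could be compared, and levels there follow both the number of cells of a type and the RNA per cell, which a summed level cannot tell apart. KO was at least 2-fold higher for 14 of them, against 5.79% of all 21791 genes, and at least 2-fold lower for Ccl17 and Cxcl1, against 2.55%. The 14 were Ccl5, Ccl6, Ccl8, Ccl11, Ccl12, Ccl19, Cxcl5, Cxcl9, Cxcl10, Cxcl11, Cxcl12, Ccr1, Ccr2 and Ccr6. Ccl19, Cxcl5 and Cxcl11 reached the minimum only through KO. Set against HT, 11 of 40 genes were higher in KO (4.92% of all genes) and Ccl17 and Ccl24 lower (1.86%). The KO library is shared by both comparisons. Of the 11, Cxcl5, Cxcr3 and Cxcr6 reached the minimum only through KO, so they had to differ. Ccl6, Ccl19, Cxcl9, Cxcl11, Cxcl12, Ccr1 and Ccr6 were not among the 11, Cxcl1 was not among the lower, and Cxcl9 turned direction, with a log2 ratio of KO to HT of -0.95. The median log2 ratio of KO over WT was 0.62, and 0.07 for all genes. Between HT and WT, 5 of 37 were higher (0.675% of all genes) and Ccl5 and Cxcr6 lower (1.11%). There Cxcl11, among the higher, reached the minimum only through HT and Cxcr6 only through WT, so both had to differ.

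The cells that carry most of these genes were also a larger share of the KO library. Cluster 8 made up 2.74%, 2.94% and 3.11% of WT, HT and KO cells, cluster 16 made up 0.642%, 0.132% and 1.20%, and cluster 15 made up 0.508%, 0.771% and 1.07%. For Cxcl12 and Ccr6 the ratio over all cells was 2.01 (1.77 to 2.29) and 2.55 (1.59 to 4.22), while within cluster 15 Cxcl12 differed by 1.60-fold. Cxcl5 had 2, 1 and 130 counts over all cells, in 1, 1 and 43 cells, and of the KO counts 80 were in cluster 15 and 38 in 19 cells of cluster 18. Without clusters 6 and 7, which KO lacked, 15 of the 16 ratios called over all cells were still called. No share of all genes is given for that setting, so no number of called genes is read from it.

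Other genes of the pathway were read from fixed lists over all cells. Of 8 compared chemokine genes outside the name rule, 3 were at least 2-fold higher in KO: Xcl1, a lymphocyte ligand, at 1.02, 0.0919 and 2.32 CPM, its receptor Xcr1, a marker of dendritic cells, and Rarres2, the chemerin gene, at 2.63, 3.88 and 5.94 CPM. Of 18 genes of receptor signalling Rac2, Dock2 and Vav1 were higher, of 9 proteases and sugar chain genes Dpp4 and Mmp2, of 12 adhesion genes Selplg, Itgam and Pecam1, and of 16 genes of NF-kB and its inducers Il1a. None of these lists had a gene at least 2-fold lower. Of all genes over all cells 5.79% were higher and 2.55% lower.

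In cluster 8, none of 14 NF-kB pathway genes differed by 2-fold between KO and WT, where 1.85% of all genes were higher and 2.24% lower. The inhibitor gene Nfkbia read 706, 713 and 509 CPM, Il1b read 2235, 2227 and 2465 CPM, and Tnf read 59.2, 39.2 and 70.2 CPM. Of 16 receptor signalling genes compared there, 1 was at least 2-fold higher in KO and 1 lower. Of 5 protease and sugar chain genes 1 was higher and 1 lower, and of 8 adhesion genes 0 were higher and 1 lower. The genes named next are those that passed 2-fold, so they do not stand for their lists. Vcam1, an adhesion molecule, stood at 112, 195 and 11.4 CPM, with KO lowest, and Rgs1, a brake on chemokine receptor signalling, at 1237, 1072 and 543 CPM. Arrb1, the beta-arrestin gene, had 8, 28 and 42 counts. Mmp14 was 2.07 times (1.27 to 3.48) higher in KO and Sdc4 lower, at 128, 94.9 and 64.0 CPM.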

How the data were processed

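Single-cell RNA was measured in 3 libraries, 1 per genotype. Per the submitters' processing notes, Cell Ranger 5, Seurat 3.1 and DESeq2, whose version is not given, took part, and 2 genome labels are listed, GRCm38 and mm10. The sources used here do not say which step used which, nor the gene annotation. The authors deposited raw counts of 55403 gene rows, added up within 61 combinations of cluster and genotype. They also deposited the number of cells with a count of each gene, the cluster of each cell barcode, and a table of scaled counts, a signal that equals the raw counts multiplied by 1 factor per column. That table served only as an alternative. The files leave unsaid if counts are reads or molecules, and how doublets were treated. No cell was removed here and no doublet caller was run, since the deposited sums do not give genes per cell.

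Rows of the same symbol were added (110 rows), none of them a chemokine gene. CPM is a gene's count scaled to 1000000 counts of the same cluster and library. The WT, HT and KO libraries held 107289047, 152382545 and 133252735 counts, or 9561, 11869 and 9935 per cell, and 3 counts in cluster 15 were worth 10.4, 5.92 and 4.39 CPM. Intervals (95%) are exact Poisson for CPM, exact Clopper-Pearson for shares of cells and exact conditional binomial for ratios. A count of 0 was set to 3 counts in a ratio. Ratios were formed in clusters with at least 50 cells in both libraries, 13 between WT and KO, for genes with at least 50 counts in both together, and a gene was called at a 2-fold difference. Cluster names needed 3 markers at 4-fold. All genes of the rule with at least 50 counts were described, each in its top cluster, except 1 gene that is not reported here and enters no count of chemokine genes. The members and lists were chosen with earlier results of these data known. The ratio code was tested on simulated data. Python 3.11.15, numpy 2.4.6, pandas 2.3.3, scipy 1.17.1 and matplotlib 3.10.9 were used, and promoter sequences came from RefSeq on GRCm38.p6. Alternatives were other denominators, the scaled counts, added constants, HT as the reference, other minimums and folds, and shares of cells.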

Additional observations from a re-analysis of the deposited data

Results flagged for a closer look

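For 3 genes the KO over WT difference went in opposite directions in different clusters, by at least 2-fold each way. With 1 library per genotype these differences between clusters were not tested. Ccl9 reached the minimum count only through KO in cluster 16 and only through WT in cluster 8. Cxcl9 reached it only through KO in cluster 15 and only through WT in cluster 8. Their ratios had to differ in these directions, so nothing is read from the change of direction of Ccl9 and Cxcl9. For Cxcl14 this was not so in cluster 11 or cluster 1. The log2 ratio of Ccl9 was 2.72 in cluster 16, from 6 WT and 83 KO counts, and -2.08 in cluster 8, from 56 and 23 counts. That of Cxcl14 was 1.03 in cluster 11, which had 13 WT counts, and -1.82 in cluster 1. For Cxcl9 it was at least 3.25 in cluster 15, against the floor of 3 counts since WT had 0, and with all 68 KO counts in 1 cell, and -1.43 in cluster 8, where only 2 WT cells had a count.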

How the results depend on the processing

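No paired analysis was possible because the design holds 1 library of each genotype and no test was made. Ratios of 136 gene and cluster pairs were recomputed, 126 with HT as the reference, 134 by share of cells and 40 without clusters 6 and 7. The number of called ratios still called was 45 of 47 without hormone and mitochondrial genes in the denominator, 39 of 47 with the authors' scaled counts, 36 of 47 with 1 CPM added, 22 of 47 with 10 CPM added, 24 of 41 against HT, 31 of 45 by share of cells and 15 of 16 without clusters 6 and 7. Directions turned for 3 called ratios (log2): Cxcl9 in cluster 8 became 1.56 by share of cells, Ccl27a in cluster 11 became 0.50 against HT, and Cxcl9 over all cells became -0.95 against HT. The cluster of the highest level was kept by 39, 37 and 34 of the 41 genes with the smaller denominator, the scaled counts and shares of cells.

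Counts of called genes moved by over 1.5 times as follows. The share of all genes called and the number of genes compared are not given for these settings. The counts therefore show only that calls depend on the setting, and nothing else is read from them. With a minimum of 20 counts, 1 was higher in cluster 1, 1 in cluster 3, 2 in cluster 4, 2 in cluster 9, 4 in cluster 10 and 1 in cluster 12, and 1 was lower in cluster 9, 2 in cluster 10 and 2 in cluster 11. With a minimum of 100 counts, 0 were higher in cluster 9 and in clusters 1, 2 and 5 together, 2 in cluster 15 and 3 in cluster 16, and 0 were lower in clusters 4, 10 and 11 and 1 in cluster 8. At 1.5-fold, 1 was higher in cluster 4 and 2 in clusters 1, 2 and 5, and 4 were lower in cluster 3, 7 in cluster 8, 1 in cluster 15 and 1 in cluster 16. Without hormone and mitochondrial genes, 0 were higher in cluster 9. With the scaled counts, 0 were higher in cluster 9 and 2 in clusters 1, 2 and 5, and 1 was lower in cluster 16 and 1 over all cells. By share of cells, 4 were higher in cluster 8, 0 in cluster 10, 1 in cluster 15, 3 in cluster 16 and 0 in clusters 1, 2 and 5, and 2 were lower in cluster 8. The cause of each move was not tested, except that the minimums and folds change how many genes can be called.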
